A study of Rattus norvegicus with 12 samples.

Results

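The M-band and titin-associated sarcomere genes are a group of 7 rat genes taken by name: Myom1, Myom2, Myom3, Obsl1, Ttn, Trim63 and Trim54. Of these, 6 matched a row among the 16898 genes of the deposited table and all 6 had a mean of at least 1 FPKM. FPKM is a read number corrected for the length of the gene and the size of the library. No row carried the name Ttn, so titin itself is not analysed here. The group was chosen by gene name with the age comparison of these same libraries already known, in which Myom2 stood among the most increased genes. Levels and age differences of the 6 genes are therefore given as a description, without a p-value.

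The libraries come from heart tissue of Sprague Dawley rats, either newborn (day 0) or some days older, with no genotype or treatment named in the labels. Labels give the later time as day 7 while the table's column headers read 10D, and these samples are called older hearts here. Each age has 3 libraries of input RNA, the RNA kept before a pull-down with an antibody against N6-methyladenosine, and the 6 pull-down samples of the series are not analysed here. The question is how the RNA levels of the M-band genes differ between the newborn and the older heart.

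The M-band is the line in the middle of the sarcomere where neighbouring myosin filaments are tied together. Myomesins form the cross-links, the giant protein titin runs from the Z-disc to the M-band as a spring and ruler, and obscurin-like 1 joins titin to myomesin. The muscle RING finger (MuRF) proteins, encoded by Trim63, Trim54 and Trim55, are ubiquitin ligases of striated muscle, and the Trim63 product binds titin near the M-band. Myomesin composition is known to differ between embryonic and adult hearts and between fibre types, and embryonic heart uses a splice form of Myom1 that values per gene do not separate.

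Library totals ran from 13489816 to 16297533 reads. The 7 cardiomyocyte markers summed to between 16699.9 and 19792.7 FPKM in every library, and the ages overlapped in that sum. Its members did not move alike: Actc1 was at 3800 to 4374 FPKM at day 0 and 2236 to 2453 FPKM in older hearts, and Myh6 at 4027 to 4922 FPKM and 7106 to 8225 FPKM. Of 12 skeletal muscle markers 7 had a row. Their sum was 251 FPKM in day 0 library 3 and 1.896 to 6.079 FPKM in the other 5 libraries, and Myh8 reached 83.8 FPKM in day 0 library 3 against at most 0.108 elsewhere. Between 2 and 6 of the 7 were at 0 in each of those 5 libraries and none was at 0 in day 0 library 3. Since skeletal muscle also uses several of the genes described here, ratios of the 6 genes without day 0 library 3 are given beside those with it, and its part in the results was not tested. Fibroblast markers (5 genes) summed to 332 to 522 FPKM at day 0 and 776 to 861 FPKM in older hearts. Atrial markers (4 genes) summed to 1953 to 2943 FPKM at day 0 and 457 to 824 FPKM in older hearts. Smooth muscle markers (4 genes) summed to 166 to 276 FPKM and then 72.2 to 91.5 FPKM, and endothelial markers (4 genes with a row) to 171 to 194 FPKM and then 246 to 268.5 FPKM. Ventricular markers (3 genes) summed to 40721 to 49293 FPKM at day 0 and 31462 to 40378 FPKM in older hearts. None of the fibroblast, atrial, smooth muscle, endothelial and ventricular sums overlapped between ages, and their part in the results was not tested. Members did not all follow: Tcf21 (fibroblast), Myl7 and Sln (atrial), Myl3 (ventricular), Myh11 and Tagln (smooth muscle) and Egfl7 (endothelial) overlapped between ages. Myh11 was at 12.2 to 19.8 FPKM at day 0 and 18.3 to 21.7 FPKM in older hearts. In whole tissue, a change in the number of cells of a type and a change in RNA per cell cannot be told apart.

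Promoter sequences of 6 of the 7 genes were found in RefSeq by symbol, and Myom2 had no entry. They are shown for the MuRF genes Trim63 and Trim54, which stood higher together in older hearts, and for Myom3, the myomesin gene of lowest level. All coordinates are of the RefSeq build GRCr8, not of the build used for the deposited values. Capitals mark matches, on either strand, to an E-box (CANNTG), a TATA box (TATAAA), an M-CAT element (CATTCC) or a MEF2 site. The Trim63 stretch lies at chr5:151816986-151817208 on the plus strand, the Trim54 stretch at chr6:30978476-30978725 on the minus strand and the Myom3 stretch at chr5:153276056-153276305 on the plus strand. Each ends at the base before the first base of the gene in the RefSeq gene table. For Trim63 the start used by the promoter table lies a little further downstream, inside the gene, so the last bases of its window are not printed.
Trim63: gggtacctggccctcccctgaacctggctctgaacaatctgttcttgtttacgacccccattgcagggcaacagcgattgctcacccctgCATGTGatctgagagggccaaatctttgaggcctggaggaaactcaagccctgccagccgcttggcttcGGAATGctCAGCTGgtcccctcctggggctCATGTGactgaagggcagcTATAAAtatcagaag
Trim54: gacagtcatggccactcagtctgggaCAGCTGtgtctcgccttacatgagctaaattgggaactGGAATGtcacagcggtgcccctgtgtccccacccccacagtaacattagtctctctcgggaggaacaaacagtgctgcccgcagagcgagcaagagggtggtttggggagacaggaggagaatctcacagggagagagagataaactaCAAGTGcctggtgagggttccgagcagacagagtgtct
Myom3: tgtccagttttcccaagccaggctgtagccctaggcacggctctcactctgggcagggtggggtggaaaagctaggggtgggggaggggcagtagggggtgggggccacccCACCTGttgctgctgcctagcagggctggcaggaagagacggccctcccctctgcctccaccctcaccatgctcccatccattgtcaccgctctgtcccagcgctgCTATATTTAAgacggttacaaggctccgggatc

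The window searched was the 250 bases before the start that the promoter table uses. For Myom1 0 and for Ttn 230 of these bases lay before the first base of the gene in the RefSeq gene table. Trim63 and Trim54 each held 1 M-CAT match, an element that 12.1% of 33469 rat promoter windows contain. Trim63 also held 1 TATA box match, as did 12.9% of windows, and 3 E-box matches against 2 in Trim54. Myom3 held 1 MEF2 match and 1 E-box match, and a MEF2 match was present in 2.96% of windows and an E-box in 65.5%. The window of Ttn also held 1 MEF2 match and 1 E-box match. The CArG box, found in 1.5% of windows, had no match in the windows of the 6 genes searched. None of these matches overlapped another in the printed stretches, and a match is a description of letters, not of a bound site.

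Myom2, which encodes M-protein, the myomesin family member of adult heart and fast skeletal muscle, was the gene of the group that differed by the widest margin between the ages. It stood at 150.0, 82.5 and 119.5 FPKM in the day 0 libraries and at 1252, 1155 and 1360.4 FPKM in the older libraries. The lowest older library was 7.70 times the highest day 0 library, so the ages were far apart. The mean went from 117 ± 33.8 to 1256 ± 103 FPKM (SD, n = 3), a ratio of 10.7, and was 10.8 without day 0 library 3. The difference was 3.45 on the log2(FPKM + 1) scale (SE 0.20) and ranked 6th from the top among 13117 tested genes. By mean level Myom2 ranked 506th of all listed genes at day 0 and 40th in older hearts. These levels rest on 5025 to 9894 reads per day 0 library and 83934 to 92261 reads per older library.

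Myom1, which encodes myomesin 1, the constant cross-linker of the M-band, kept nearly the same mean. It was measured at 392, 403.5 and 541 FPKM at day 0 and at 440.3, 518 and 477 FPKM in older hearts, with overlapping ages. The highest value of all 6 was in day 0 library 3, the library with skeletal muscle markers. Means were 446 ± 82.7 and 479 ± 38.9 FPKM (SD, n = 3), a ratio of 1.07, which became 1.20 without that library. The log2 difference was 0.12 (SE 0.14).

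Myom3, a myomesin best known from slow and intermediate skeletal fibres, was close to the lower limit of the tested range. Its values were 1.17, 2.87 and 2.94 FPKM at day 0 and 3.65, 4.09 and 2.85 FPKM in older hearts. The ages overlapped because older library 3 lay below 2 of the day 0 libraries. With 74 reads, day 0 library 1 had a 95% exact Poisson interval of 0.921 to 1.47 FPKM for counting error only, below the intervals of the other 5 libraries, which began at 2.45 FPKM or above. The ratio of means was 1.52, or 1.75 without day 0 library 3, and the log2 difference was 0.49 (SE 0.34).

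**Figure D1:**
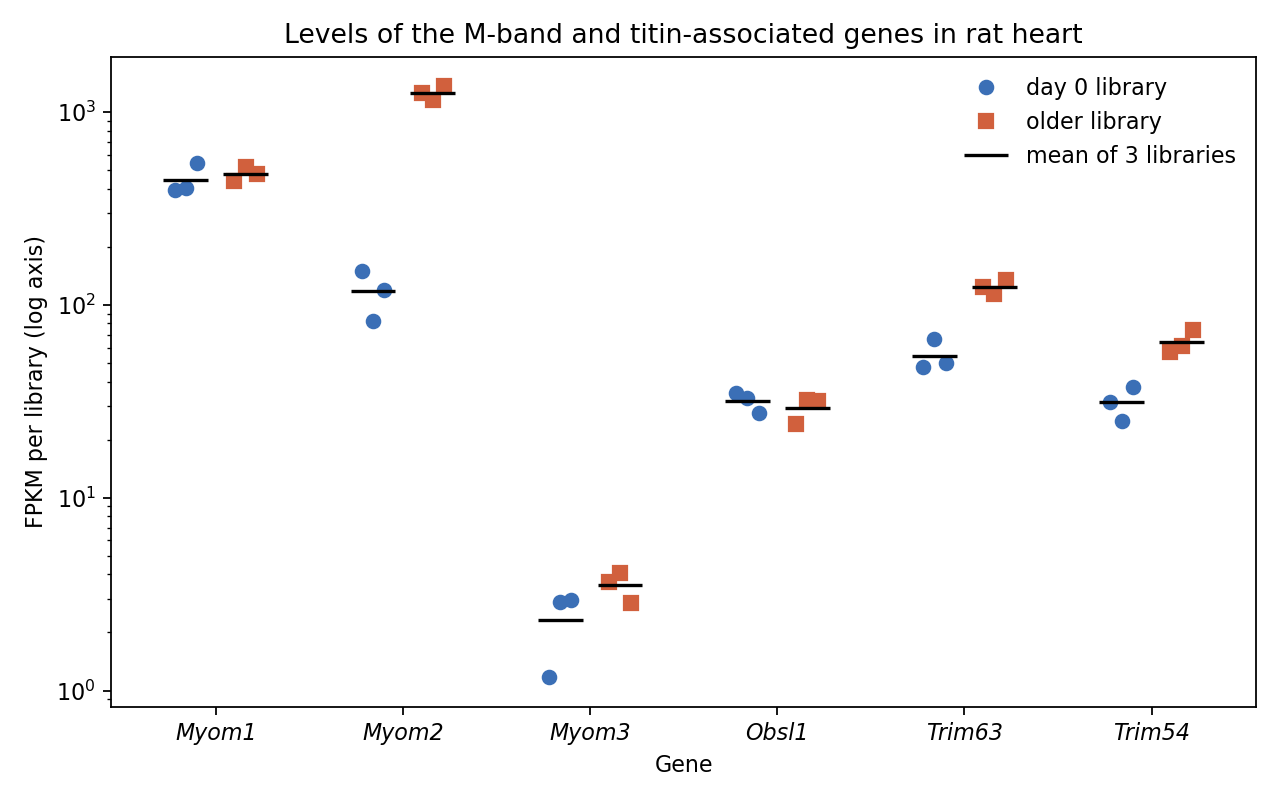
FPKM of the 6 genes on a log axis, with a circle for each day 0 library, a square for each older library and a line at the mean of 3. Myom2, Trim63 and Trim54 have all older libraries above all day 0 libraries, whereas Myom1, Myom3 and Obsl1 overlap.

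FPKM are corrected for gene length, so the levels of the myomesins were added and shared out. Whether the length used for each gene fits the transcripts present was not tested. The sum of the myomesins was 489 to 663 FPKM at day 0 and 1678 to 1840.4 FPKM in older hearts, a ratio of means of 3.08. Myom1 made up 72.2% to 82.5% of that sum at day 0 and 25.9% to 30.9% in older hearts. Myom2 made up 16.9% to 27.6% at day 0 and 68.9% to 73.9% in older hearts, and Myom3 stayed under 0.587% in every library. The Myom1 to Myom2 ratio was 2.61, 4.89 and 4.53 in the day 0 libraries and 0.352, 0.449 and 0.351 in the older libraries. By FPKM, Myom1 was thus the more abundant RNA in each day 0 library and Myom2 in each older library. The order of the pair turned between the ages. The change of the log2 ratio, -3.34, was the lowest of the 15 pairs of genes.

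Obsl1 encodes obscurin-like 1, which links titin and myomesin at the M-band. It was measured at 34.8, 32.9 and 27.6 FPKM at day 0 and at 24.2, 32.2 and 31.6 FPKM in older hearts. The groups overlapped and the means were 31.7 ± 3.71 and 29.3 ± 4.47 FPKM (SD, n = 3), a ratio of 0.923, or 0.867 without day 0 library 3. Its log2 difference of -0.12 (SE 0.16) turned to 0.00 after centring each library on its median gene and to 0.01 without older library 1. The ratio of Myom2 to Obsl1 had the highest change among the 15 pairs, from a geometric mean of 3.61 to 43.1 (log2 change 3.58).

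Trim63, which encodes MuRF1, stood higher in each older library than in any day 0 library. It was at 47.4, 66.2 and 49.9 FPKM at day 0 and at 124, 114 and 134 FPKM in older hearts. The lowest older value was 1.73 times the highest day 0 value. Means were 54.5 ± 10.2 and 124 ± 10.1 FPKM (SD, n = 3), a ratio of 2.28, or 2.19 without day 0 library 3, and the log2 difference was 1.19 (SE 0.15).

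Trim54 encodes MuRF3, a microtubule-associated relative of MuRF1. Its levels were 31.3, 25.1 and 37.3 FPKM at day 0 and 57.0, 61.3 and 73.6 FPKM in older hearts, again without overlap. Means were 31.3 ± 6.12 and 64.0 ± 8.64 FPKM (SD, n = 3), a ratio of 2.05, and the log2 difference was 1.02 (SE 0.17). Day 0 library 3 held the highest of the day 0 values, and without it the ratio was 2.27. The ratio of Trim63 to Trim54 overlapped between ages, with geometric means of 1.75 and 1.95.

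Trim55, the gene for MuRF2 and the closest relative outside the 7, went the other way. It fell from 178 ± 18.9 to 88.5 ± 11.5 FPKM (mean ± SD, n = 3; log2 difference -1.004, SE 0.13, limma adjusted p = 0.00552), with no overlap between ages. The sum of the MuRF genes was 247.5 to 289 FPKM at day 0 and 262.5 to 290.2 FPKM in older hearts, a ratio of means of 1.05. Within that sum Trim55 held 64.8% to 69.2% at day 0 and 28.3% to 36.7% in older hearts. Trim63 held 18.6% to 22.9% at day 0 and 41.2% to 47.2% in older hearts. By FPKM the leading MuRF RNA was thus Trim55 in all day 0 libraries and Trim63 in all older libraries. The share of Trim54 went from 8.675% to 15.1% at day 0 to between 21.7% and 25.4% in older hearts.

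**Figure D2:**
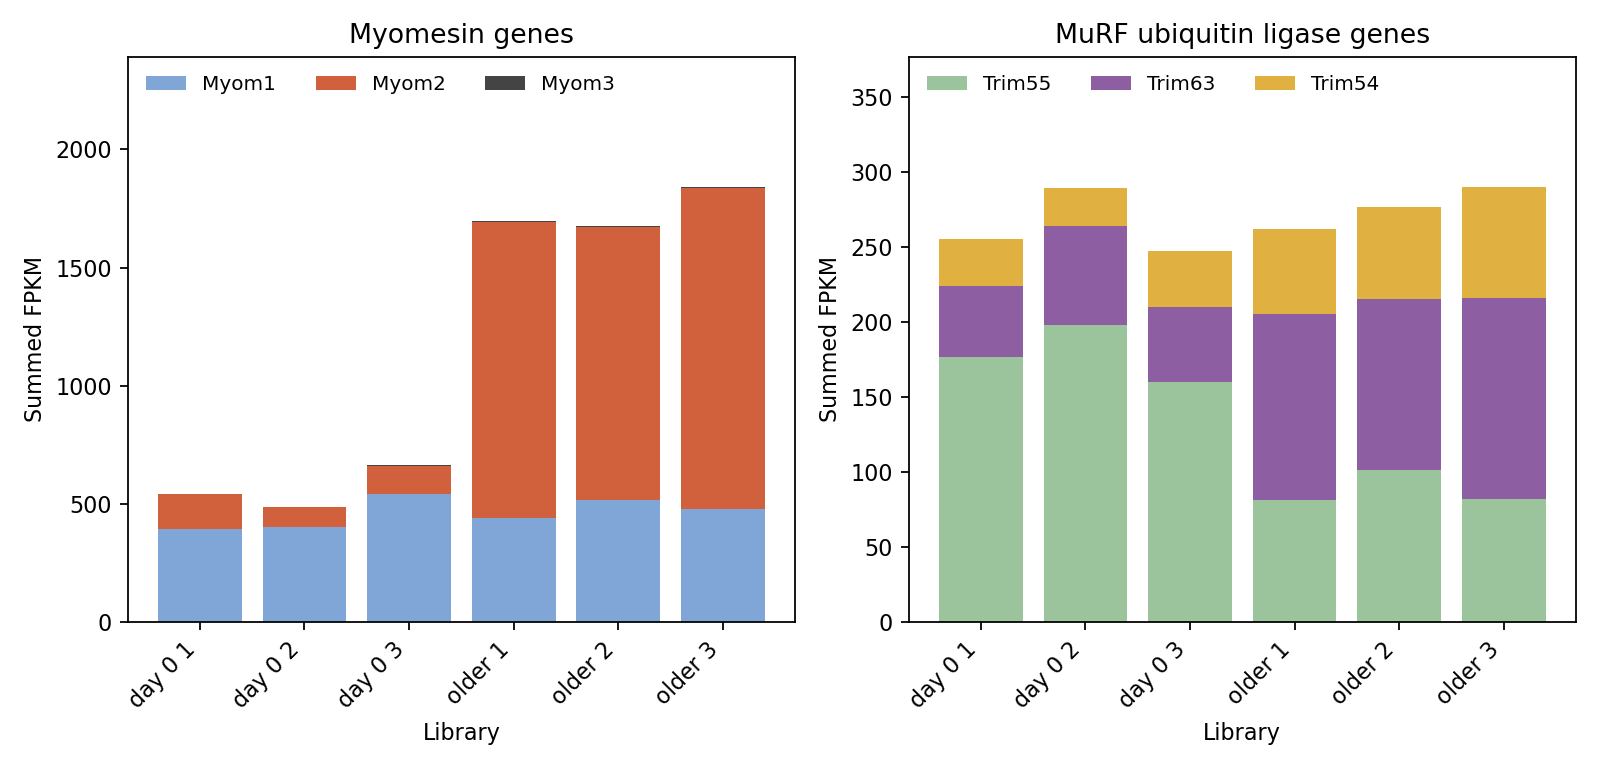
Summed FPKM per library for the myomesin genes (left) and the MuRF genes (right), stacked by gene, with both axes starting at 0. The myomesin sum is larger in all older libraries through the Myom2 part, while the MuRF sums of the ages overlap and their makeup differs.

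The fit over all genes called 3 of the 6 members higher in older hearts and none lower. Over all 13117 tested genes limma called 9.26% in either direction, 3.52% as higher and 5.73% as lower at an adjusted p under 0.05. That split of 462 higher and 752 lower turned to 617 and 464 when each library was centred on its median gene. Ages did not overlap in 3 of the 6 members, all with older hearts higher, against 32.5% of all tested genes in either direction and 12.2% with older hearts higher. Since the group was chosen with this contrast known, nothing is read from these counts. The median gene stood at -0.11 and the quartiles at -0.44 and 0.25. Relative to the median gene, by centring each library, the differences were 3.57 for Myom2, 1.305 for Trim63, 1.14 for Trim54, 0.61 for Myom3, 0.23 for Myom1 and 0.00 for Obsl1.

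**Figure D3:**
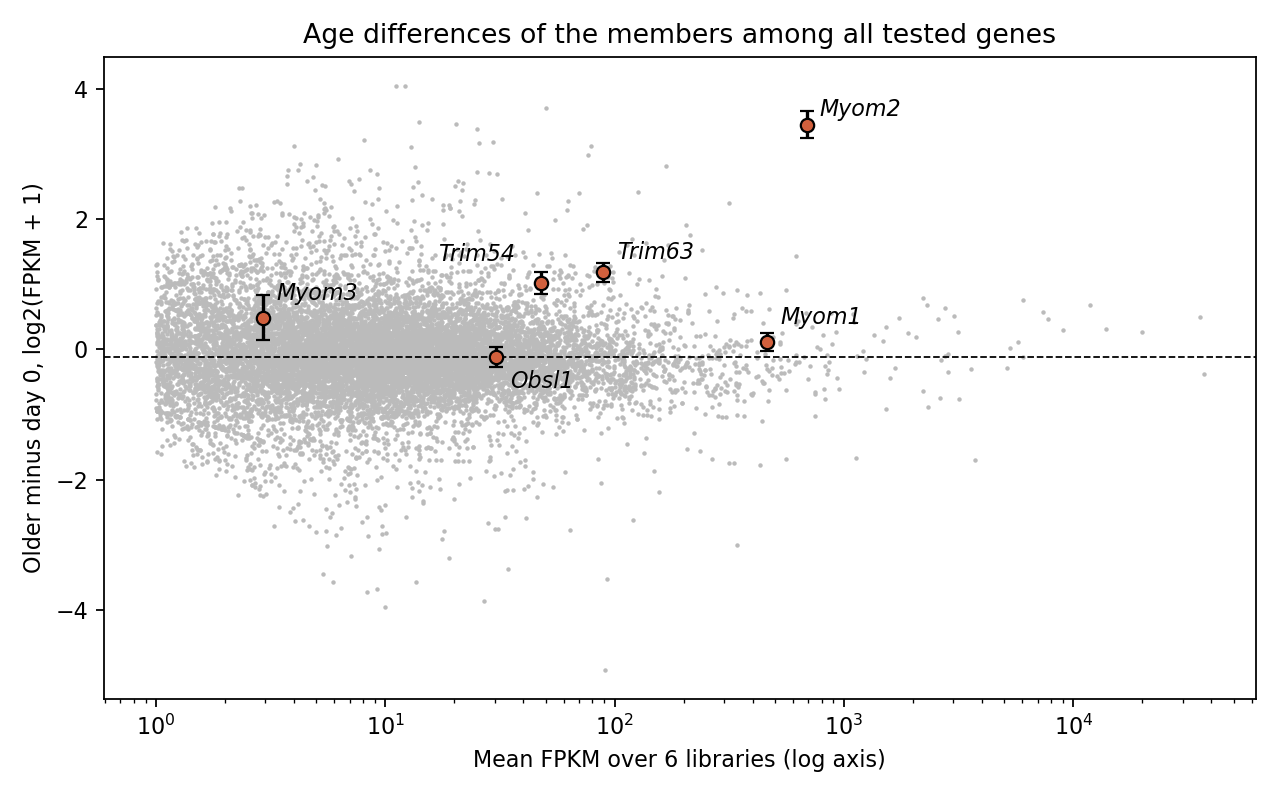
Older minus day 0 difference on the log2(FPKM + 1) scale against mean FPKM over the 6 libraries on a log axis, with grey points for all tested genes, labelled points with SE bars for the 6 members and a dashed line at the median gene, -0.11. Myom2 at 3.45 is the highest of the members, and Obsl1 at -0.12 lies on the line.

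Levels were also set against the summed cardiomyocyte markers of the same library, in thousandths of that sum. Myom2 stood at 6.60 ± 1.79 in newborn and 66.2 ± 5.06 in older hearts (SD, n = 3), a ratio of 10.03. Trim63 was at 3.07 ± 0.577 and 6.54 ± 0.505, and Trim54 at 1.77 ± 0.426 and 3.36 ± 0.312 (SD, n = 3). These 3 genes had no overlap between ages on this scale either. Myom1, at 25.3 ± 6.18 and 25.2 ± 1.62 (SD, n = 3), differed by a ratio of 0.996, and Obsl1 by 0.863.

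The spread between libraries of one age differed among the genes. At day 0 the coefficient of variation was 11.7% for Obsl1, 18.6% for Myom1, 18.7% for Trim63, 19.6% for Trim54, 28.8% for Myom2 and 43.0% for Myom3. In older hearts it was 8.13% to 8.17% for Myom1, Trim63 and Myom2, 13.5% for Trim54, 15.3% for Obsl1 and 17.7% for Myom3. Day 0 libraries did not rank the genes alike: library 1 was highest for Myom2 and Obsl1, library 2 for Trim63, and library 3 for Myom1, Myom3 and Trim54.

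Among other genes, those with the pattern most like Myom2 across the 6 libraries were Sptb, Spryd7, Rbfox1, Itga7 and Fbxo40. Likeness was Pearson's r of log2(FPKM + 1), which ran from 0.999 for Sptb to 0.996 for Fbxo40, and is a description since all 6 points share 2 ages and their libraries. Sptb encodes a beta spectrin of the membrane skeleton and stood at 21.6 ± 2.33 and 47.5 ± 0.609 FPKM at the 2 ages (SD, n = 3). Itga7, the alpha 7 integrin that binds laminin in muscle, stood at 4.02 ± 0.469 and 24.8 ± 1.42 FPKM (SD, n = 3). Spryd7 was measured at 22.4 ± 4.06 and 101.7 ± 3.44 FPKM (SD, n = 3). The most similar gene was the complement gene C7 for Trim54 (r = 0.998), Mreg for Trim63 (0.994), Plekhg1 for Myom1 (0.994), Fmo1 for Myom3 (0.999) and Eml3 for Obsl1 (0.999). Mreg stood at 0.242 ± 0.221 and 3.81 ± 0.660 FPKM (SD, n = 3). Like Rbfox1, it passed the level filter only through the older libraries. Among the members themselves, r was 0.958 for Myom2 with Trim54, 0.925 for Myom2 with Trim63 and 0.859 for Trim63 with Trim54, and between -0.532 and -0.313 for Obsl1 with each of the others.

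Other proteins that bind titin or sit in the M-band and A-band were followed in a list of 26 genes, of which 24 had a row and 22 were tested. In this list 3 genes rose, Ankrd23 among them, and 3 fell, where 9.26% of all tested genes were called in either direction. Ages did not overlap in 13 genes, against 32.5% of all tested genes, and the median log2 difference was 0.05 against -0.11 for all tested genes. Those 13 include Ankrd23 and Mybpc1. Ankrd23 passed the level filter only through the older libraries, and Mybpc1 only through day 0 library 3. Cmya5, which encodes myospryn, a large muscle protein that binds titin, rose from 21.4 ± 0.793 to 118 ± 4.17 FPKM (mean ± SD, n = 3; log2 difference 2.41, SE 0.10, limma adjusted p = 0.000223). Its adjusted p stayed at or below 0.00612 when any 1 library was left out. Ankrd23, a titin-binding ankyrin repeat gene, had means of 0.588 ± 0.644 and 5.16 ± 1.31 FPKM (SD, n = 3) and was called higher at 2.01 (limma adjusted p = 0.0245). It passed the level filter only through the older libraries (8, 23 and 1 reads at day 0), so its call is given as a description. Sqstm1, the autophagy receptor p62 that meets the titin kinase with MuRF2, was called at 1.01 (limma adjusted p = 0.0112), from 82.8 ± 13.3 to 167 ± 26.8 FPKM (SD, n = 3). The call of Ankrd23 was lost without day 0 library 1 or any 1 older library (limma adjusted p up to 0.104), and that of Sqstm1 without day 0 library 1 or 2 or older library 2 (up to 0.0573).

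Among the genes that fell, Fhl1, a LIM protein gene whose product binds the titin spring, went from 139 ± 25.2 to 66.0 ± 2.49 FPKM (mean ± SD, n = 3; log2 difference -1.05, SE 0.14, limma adjusted p = 0.00589). Unc45b, the myosin chaperone, went from 109 ± 21.8 to 59.2 ± 5.76 FPKM (mean ± SD, n = 3; difference -0.85, limma adjusted p = 0.0222), and Cryab, which encodes a small heat shock protein of the sarcomere, from 673 ± 51.3 to 440.0 ± 62.9 FPKM (mean ± SD, n = 3; difference -0.62, limma adjusted p = 0.0275). The call of Cryab was lost without any 1 of the 6 libraries (limma adjusted p from 0.0653 to 0.0903). That of Unc45b was lost with any library but day 0 library 3 left out (up to 0.0938). Without day 0 library 3 the list had 4 genes higher and 5 lower. Mybpc1, the slow skeletal myosin-binding protein C, was at 27.6 FPKM in day 0 library 3 and at 0.238 to 0.485 FPKM in the other 5 libraries, and did not pass (limma adjusted p = 0.406). Ankrd2 and Capn3 were below the level filter, and Ankrd2 had reads in day 0 library 3 alone (0.929 FPKM). Ak1 and Tcap matched no row.

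In a list of 23 ubiquitin ligases of muscle and factors known to act on Trim63, 20 had a row and 19 were tested. Here 4 rose and 3 fell, beside 3.52% called higher and 5.73% called lower over all tested genes. There was no overlap between ages in 14 genes, against 32.5% over all tested genes, and the median log2 difference was 0.51 against -0.11. Fbxo32, which encodes atrogin-1, a muscle ligase often measured beside MuRF1, rose from 38.9 ± 2.81 to 86.2 ± 6.27 FPKM (mean ± SD, n = 3; log2 difference 1.13, SE 0.11, limma adjusted p = 0.0022). Fbxo40, a muscle F-box gene, rose from 35.2 ± 4.55 to 81.4 ± 3.13 FPKM (mean ± SD, n = 3; difference 1.20, SE 0.12, limma adjusted p = 0.00253). Both calls held with each library left out in turn (limma adjusted p up to 0.0209 and 0.0232). Foxo3 and Klf15, transcription factors known to act on Trim63, were called higher at 0.89 and 1.09 (limma adjusted p = 0.0126 and 0.0493). Foxo3 went from 17.6 ± 0.775 to 33.6 ± 4.995 FPKM and Klf15 from 22.01 ± 7.68 to 47.2 ± 11.1 FPKM (SD, n = 3). The call of Klf15 was lost with any library but day 0 library 3 left out (up to 0.169), and that of Foxo3 without day 0 library 1 or 2 or older library 1 or 2 (up to 0.0540).

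Beside Trim55, the genes that fell were Klhl41 and Klhl40, adaptor genes whose products stabilise thin filament proteins. Klhl41 went from 32.9 ± 2.36 to 13.5 ± 3.04 FPKM (mean ± SD, n = 3; log2 difference -1.24, limma adjusted p = 0.00758), and Klhl40 from 6.87 ± 0.495 to 1.63 ± 0.368 FPKM (mean ± SD, n = 3; difference -1.59, limma adjusted p = 0.0117). Klhl40 lost its call without day 0 library 1 or older library 2 (up to 0.0530). With day 0 library 1 or 2 or older library 1 or 2 left out, 2 genes of the list were called higher in place of 4. Mstn was below the level filter, and Nr3c1, Dach2 and Myog matched no row.

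Titin is spliced differently in newborn and adult hearts, and a list of 11 RNA-binding proteins and kinases known to act on sarcomere transcripts was read for that reason. Of the 10 tested, 1 rose and 1 fell, 4 had no overlap between ages, and the median log2 difference was -0.27, beside 9.26% called, 32.5% without overlap and a median of -0.11 over all tested genes. Rbfox1 rose from 0.413 ± 0.298 to 21.9 ± 2.32 FPKM and was 2nd from the top among all tested genes (SD, n = 3; log2 difference 4.04, limma adjusted p = 0.000472). Rbfox1 passed the level filter only through the older libraries, with 41, 5 and 32 reads in the day 0 libraries. Its call and rank are therefore given as a description. Celf1 fell from 140.5 ± 3.91 to 74.0 ± 5.04 FPKM (mean ± SD, n = 3; difference -0.92, SE 0.10, limma adjusted p = 0.00267). Rbm20, the main known regulator of titin splicing, stood at 71.4 to 82.0 FPKM at day 0 and 57.2 to 69.6 FPKM in older hearts and did not pass (limma adjusted p = 0.146). Qki matched no row. Values per gene do not show which titin or myomesin isoforms were made.

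**Figure D4:**
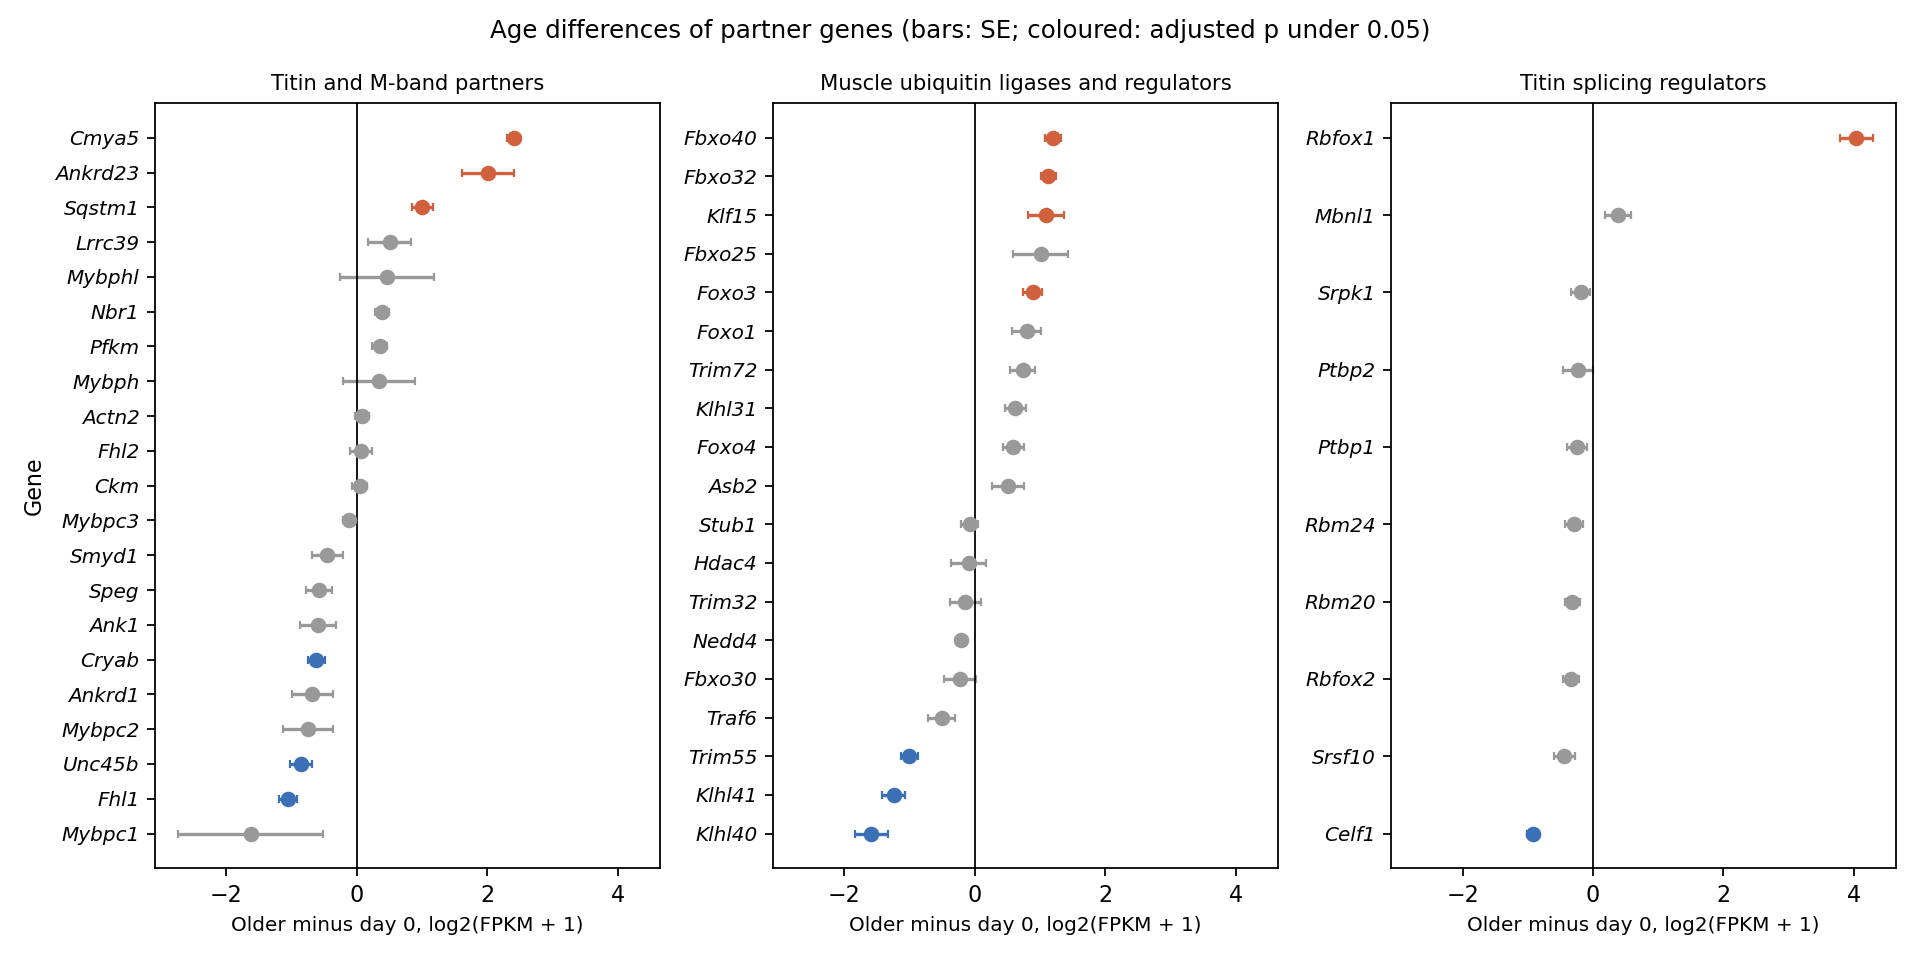
Older minus day 0 difference on the log2(FPKM + 1) scale with SE bars for the tested genes of the partner, ligase and splicing lists (1 partner gene is not drawn), in 3 panels ordered by value, with orange for higher and blue for lower at a limma adjusted p under 0.05 and grey otherwise. Rbfox1 at 4.04 and Cmya5 at 2.41 lead the higher genes, and Klhl40 at -1.59 is the lowest of the called genes. Rbfox1 and Ankrd23 passed the level filter only through the older libraries, so their colour is a description.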

How the data were processed

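The deposited table holds FPKM values of 6 input libraries, 1 column each, for 16898 genes, as the authors gave them, with their own log2 fold change, p-value and adjusted p-value per gene. HISAT2, HOMER 4.10 and the build rn5 appear in the submitters' processing notes with no role. Not given in the sources used here are the counter, its annotation, whether it used strand and the test behind the p-values. Per the labels' protocols, libraries were depleted of ribosomal RNA and used SMART cDNA synthesis. No label ties a replicate to an animal of its own, so p-values measure the spread between samples, which may be technical.

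Within each gene the values are whole multiples of 1 read. Reads were recovered for 100% of genes (relative tolerance 1e-09, up to a factor shared by a gene's 6 values), and read intervals cover counting error only, since PCR reads are not independent molecules.

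FPKM are not counts, so log2(FPKM + 1) was fitted with limma 3.58.1 in R 4.3.3 (lmFit, eBayes with trend) for the 13117 genes that averaged 1 FPKM or more, with Benjamini-Hochberg adjustment at 0.05, and tested on simulated data. Fold changes on this scale understate changes of low genes. Members, lists and the rule for named genes were chosen with earlier results of these data known. That rule takes the 7 members, list genes that passed or lay under the filter, the 5 genes most like Myom2 and the gene most like each other member, and the extreme pair ratios. Mybpc1, Rbm20 and the marker genes were picked for naming once their values were known. The partner list's counts include 1 gene whose own values are not reported here. Alternatives changed the scaling, pseudocount, filter, variance model, values tested, replicate block and libraries.

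Same-numbered libraries of the 2 ages did not deviate together (r of -0.0362, -0.00332 and -0.0499 over tested genes), so numbers were not taken as pairs.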

Additional observations from a re-analysis of the deposited data

How the results depend on the processing

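The log2 differences of Myom2, Myom3, Trim63 and Trim54 kept their direction in each alternative run. That of Myom1 was close to 0 relative to cardiomyocyte markers (0.02), where its ratio of means was 0.996. Obsl1 turned: its difference of -0.12 ranged from -0.22 relative to cardiomyocyte markers to 0.01 without older library 1. Myom2 ran from 3.22 to 3.64 with 1 library left out, Trim63 from 1.09 to 1.33, Trim54 from 0.88 to 1.15, Myom3 from 0.20 to 0.63 and Myom1 from 0.03 to 0.26. The authors' deposited table gives 3.54 for Myom2, 1.31 for Trim63, 1.15 for Trim54, 0.72 for Myom3, 0.22 for Myom1 and 0.00 for Obsl1. Quantile normalization moved Myom1 to 0.32.

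Counts of called genes moved more. Over all genes 462 were higher and 752 lower. Median centring gave 617 and 464, quantile normalization 620 and 479, no mean-variance trend 299 and 370, and limma-voom on recovered reads 725 and 1106. With 1 library left out, 145 to 484 were higher and 218 to 646 lower, the highest counts being without day 0 library 3. With the replicate block, 217 were higher and 284 lower. For the partner list, 3 higher, Ankrd23 among them, became 5 after median centring and 1 to 4 with 1 library left out. Its 3 lower became 1 without the trend, 1 with the replicate block and 1 to 5 with 1 library left out. For the ligase list, 4 higher became 7 after median centring or quantile normalization, 8 with a minimum of 5 FPKM or with voom, 2 with the replicate block and 2 to 5 with 1 library left out. The splicing list stayed at 1 and 1 in all alternatives run. Its higher gene was Rbfox1, which passed the level filter only through the older libraries, so that count is a description. Settings other than a library left out also cost calls of single genes. Cryab lost its call in 4 of 8 such settings, Klf15 in 3 of 8, Unc45b in 2 of 8, Ankrd23 in 2 of 7 and Foxo3 in 1 of 8. Of 17 promoter motif matches 15 were found on the given strand alone. The cause of these shifts was not tested. Myom3, with 74 to 284 reads per library, is the member whose value depth limits most.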
